A study of Petunia x hybrida with 10 samples.

Results

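The regions described here are stretches of petunia RNA that carried N1-methyladenosine (m1A) peaks with the same first and last base in libraries of both treatments. Peaks of the 6 m1A libraries were merged wherever they shared 1 bp or more. A region was kept when it was present in exactly 2 or 3 libraries, with at least 1 air and 1 ethylene library among them, and when all of its peaks had the same start and the same end. This rule found 877 regions among 6231 of the same recurrence (14.1%, the background of the rule itself) and among 36717 m1A regions in all (2.39%). The count was 570 without ethylene library 3, 408 with peaks at or above a score of 3100 alone and 1337 with edges allowed to differ by up to 10 bp. Members were chosen by the measured starts and ends of their peaks, so the identity of these edges, and the widths that follow from them, are given as a description with no test.

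Petals (the corolla) were taken from Petunia x hybrida cultivar Mitchell, a laboratory line. All libraries came from flowers kept for 16 h, either in air (3 m1A libraries) or with ethylene at 2 µl/l (3 m1A libraries). RNA fragments were pulled down with an anti-m1A polyclonal antibody and sequenced, per the labels' protocols. A further 4 libraries titled m6A, 2 from air and 2 from ethylene, were used as peak lists that the rule had not seen, and their protocol text names the same anti-m1A antibody. Whether replicate libraries stem from different plants is not in the labels, so every p-value rests on library-to-library spread that may be technical.

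m1A is adenosine with a methyl group on the face that pairs with another base. It is best known from transfer RNA and ribosomal RNA, where it steadies the fold, and it blocks reverse transcriptase at the marked base. In an antibody experiment a peak marks a fragment pile-up of many bases rather than the modified base itself, so the edge of a peak is set by where the pile-up was called to begin and end. Ethylene is the gaseous hormone that hastens the wilting of petunia petals, and the corolla is a standard tissue in which to follow it.

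The m1A lists held 1013 to 17573 peaks on 417 to 1154 scaffolds whose names begin with Peaxi162, the prefix of a Petunia axillaris assembly. Ethylene library 2 had by far the shortest list. The files hold no read counts, so depth was unknown for each library, and no interval that needs depth is given. Scores were given per peak by the authors' peak caller, from 100 to 3233, with 3100 as the most common value. They were used to rank peaks or to count those at 3100 within a list, and as a cutoff in an alternative that kept peaks at or above 3100.

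Most of the 877 regions joined 1 air and 1 ethylene library. There were 605 regions of 2 libraries, or 16.3% of the 3718 mixed regions of that recurrence, and 272 regions of 3 libraries, or 10.8% of 2513. Of the 272, 204 came from 2 air libraries and 1 ethylene library, and 68 from 1 air and 2 ethylene libraries. The air lists were longer on average, and the part of list length in that split was not tested. The most frequent library sets were air 2 with ethylene 3 (148 regions), air 2 with ethylene 1 (118), air 1 with ethylene 1 (115) and air 1 with ethylene 3 (102). Among sets of 3, air 1 and 2 with ethylene 3 held 83 regions and air 1 and 2 with ethylene 1 held 50. Ethylene library 2 entered 27 of the 877 regions.

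As peaks, the members made up a small share of every list. They numbered 402, 487 and 192 in air libraries 1, 2 and 3, and 427, 27 and 491 in ethylene libraries 1, 2 and 3. This was 2.58, 2.77 and 2.84% of the air lists and 5.67, 2.67 and 6.09% of the ethylene lists. Ethylene libraries 1 and 3 stood above the other libraries, and ethylene library 2 lay among the air libraries. The rule asks for a partner list of the other treatment. Partner lists of the ethylene libraries were longer on average, so these shares were not tested. Air library 3 (6760 peaks) was shorter than ethylene libraries 1 (7526 peaks) and 3 (8059 peaks). Among the peaks of each library in mixed regions of 2 or 3 libraries, members were 12.6, 13.4 and 13.9% in air and 13.8, 9.06 and 14.2% after ethylene.

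Exact identity of both edges was not the end of a smooth run of near matches. Of the 5354 regions of the same recurrence whose edges differed, 5271 had 1 peak per library, and there the start difference and the end difference were added. Only 77 regions differed by 1 bp in total and 140 by 2 bp or less, against the 877 with no difference. Up to 10 bp there were 456 (8.65% of 5271), up to 50 bp 1826 (34.6%) and up to 100 bp 2838 (53.8%), with a median of 88 bp. Regions just outside the rule included Peaxi162Scf00004 from 71689 to 71777, in air library 1 and ethylene library 1, whose ends differed by 1 bp, and Peaxi162Scf00004 from 319823 to 319936, in air library 2 and ethylene library 3, whose starts differed by 1 bp.

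**Figure D1:**
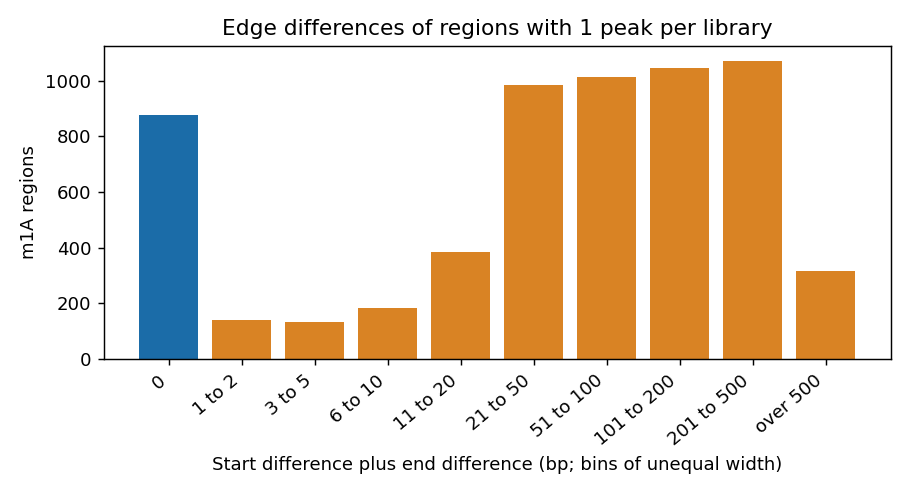
Number of m1A regions of 2 or 3 libraries of both treatments, with 1 peak per library, by the sum of their start difference and end difference in bp; the bins have unequal widths. The 877 regions at 0 bp stand above the 140 regions at 1 to 2 bp; the taller bars further right cover wider bins, and per bp the counts are 70.0 at 1 to 2 bp, 38.4 at 11 to 20 bp and 20.2 at 51 to 100 bp.

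A single shared edge was more frequent than 2 shared edges. Among the 5271 regions with 1 peak per library, 1644 (31.2%) had the same start and different ends, 1710 (32.4%) had the same end and different starts, and 1917 (36.4%) shared neither. Start here means the lower coordinate on the scaffold, since the m1A lists carry no strand. Where 1 edge was shared, the other edge differed by a median of 53 bp. Of 2443 mixed regions with 1 peak in each of 3 libraries, 272 had the same edges in all 3. Another 472 had the same edges in 2 of the 3 libraries, 281 of them in 1 air and 1 ethylene library, and in 1699 all 3 peaks differed.

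The next comparison asked whether identical edges were as frequent between treatments as within a treatment. Over regions found in exactly 2 libraries, the share with identical edges was 16.7 ± 0.900% for the 3 pairs of air libraries (SD over pairs), 19.1 ± 9.24% for the 3 pairs of ethylene libraries and 15.3 ± 3.94% for the 9 mixed pairs. The air pairs had 15.6, 17.0 and 17.4%. The ethylene pairs had 21.9% for libraries 1 and 3, 26.7% for libraries 1 and 2 (8 of 30 regions) and 8.82% for libraries 2 and 3 (3 of 34 regions). The mixed pairs ran from 8.82% (air 2 with ethylene 2, 6 of 68 regions) to 21.6% (air 3 with ethylene 1, 53 of 245). All 3 kinds of pair overlapped.

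Within minus between treatments came to 2.58 percentage points (17.9 against 15.3%). Identical edges in mixed pairs are what chose the members, so this difference is a description with no test. It was 0.959 points without ethylene library 2 and 1.53 or 4.30 points when ethylene library 1 or 3 was left out. Leaving out air library 1, 2 or 3 gave 1.06, 2.07 or 5.57 points. Across all regions of 2 or 3 libraries, those of 1 treatment only had identical edges in 767 of 4643 (16.5%), beside the 14.1% of mixed regions. These shares were not matched for the number of libraries, so they are not a like comparison. Mixed regions had identical edges in 16.3% of those in 2 libraries and 10.8% of those in 3. Regions in 4 or more libraries had identical edges in 181 of 1664 (10.9%). Over all regions of 2 or more libraries the share was 14.6%.

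**Figure D2:**
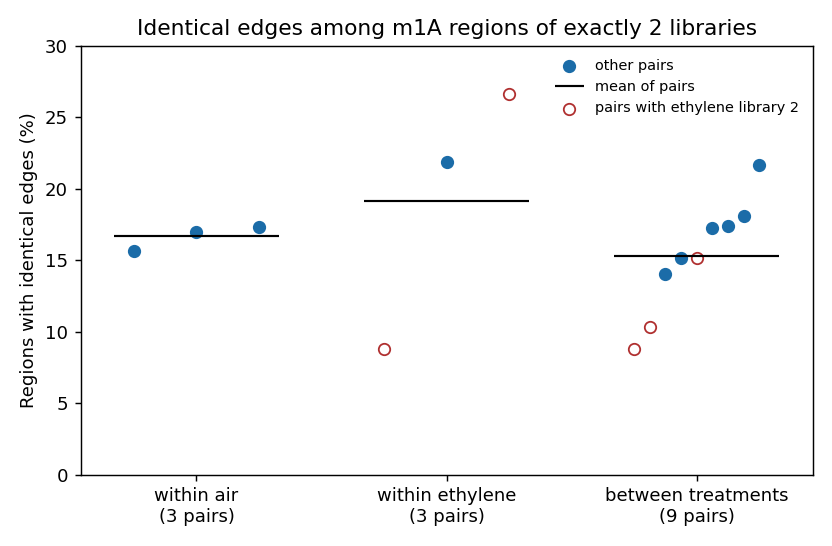
Share (%) of m1A regions found in exactly 2 libraries whose edges were identical, 1 point per pair of libraries, for pairs within air, within ethylene and between treatments; lines are means of the pairs. The means are 16.7, 19.1 and 15.3%, and the open points, pairs with ethylene library 2, hold both the highest and the lowest values.

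Members were narrow. Their width had a median of 125 bp, with the middle part of the distribution from 83 to 179 bp (25th to 75th percentile) and a range of 7 to 933 bp. Regions of the same recurrence whose edges differed had a median of 240 bp (130 to 384 bp), but those widths are of merged regions, which grow when edges differ. Peaks were therefore compared within each library. Member peaks had median widths of 130.5, 131 and 124 bp in air libraries 1 to 3 and 120, 130 and 131 bp in ethylene libraries 1 to 3. Peaks of differing-edge regions had median widths of 198, 200 and 195.5 bp in air and 184, 161 and 196 bp after ethylene. All peaks of a list had medians of 159, 158 and 160 bp in air and 156, 146 and 162 bp after ethylene. These lay between those of members and of differing-edge peaks in each library, so the differing-edge peaks were themselves wide for their lists. The member median was the lower in 6 of 6 libraries, with a mean difference of -61.3 ± 15.1 bp (SD, n = 6 libraries, which share regions).

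Member widths were concentrated between 51 and 200 bp. Of the 877 members, 246 (28.1%) were 51 to 100 bp wide and 421 (48.0%) were 101 to 200 bp wide, against 17.4 and 24.6% of the 13042 peaks of differing-edge regions. Widths of 201 to 400 bp held 121 members (13.8%) and 35.8% of the differing-edge peaks. Very narrow peaks of 50 bp or less were 6.84% of members and 10.3% of differing-edge peaks, so the members were not simply the smallest peaks. Members of 3 libraries were wider than those of 2, with a median of 147 against 115 bp. By width of the merged region, edges were identical in 26.0% of 1177 regions up to 100 bp, 24.3% of 1736 regions of 101 to 200 bp, 5.90% of 2050 regions of 201 to 400 bp and 2.29% of 1268 wider regions.

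**Figure D3:**
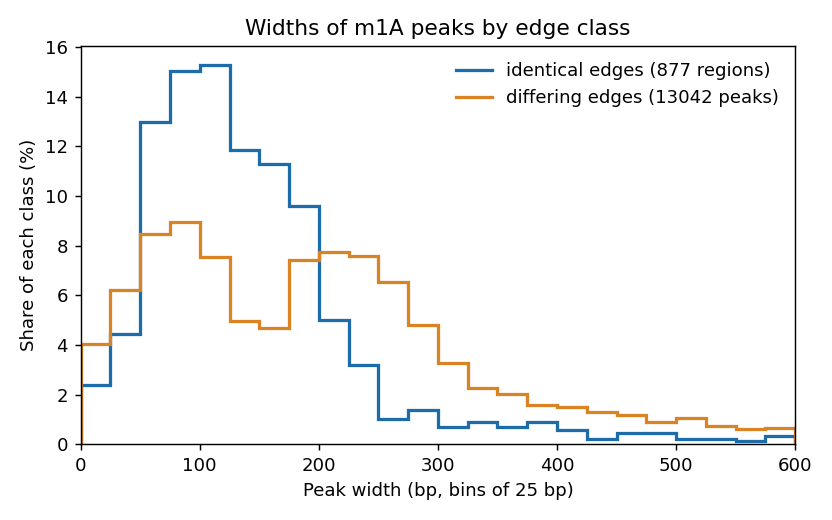
Distribution of peak width in bins of 25 bp, as the share (%) of each class, for the 877 identical-edge regions and for the 13042 peaks of regions whose edges differed; widths over 600 bp are not drawn. Identical-edge widths have a single rise around 100 bp, whereas differing-edge peaks have a second rise above 200 bp.

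The widest members were long peaks called alike in 3 libraries. Peaxi162Scf00007 from 51336 to 52268 (933 bp) was in air libraries 1 and 2 and ethylene library 3. Peaxi162Scf00068 from 1834524 to 1835344 (821 bp) and Peaxi162Scf00166 from 698709 to 699515 (807 bp) came from the same 3 libraries. The latter had low scores in its lists, 339 in air library 2 and 364.5 in ethylene library 3, and a mean score percentile of 11.3. Peaxi162Scf00828 from 132949 to 133631 (683 bp) was in air libraries 1 and 2 and ethylene library 1 with a score of 3100 in each. Peaxi162Scf00126 from 173410 to 174038 (629 bp) was in air libraries 1 and 3 and ethylene library 2, the only 1 of the 5 widest that included the shortest list.

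The narrowest members were a few bases long and still matched to the base. Peaxi162Scf00045 from 2578994 to 2579000 (7 bp) was in air libraries 2 and 3 and ethylene library 3, with scores of 1254, 2657 and 769. Peaxi162Scf00074 from 555259 to 555266 (8 bp) was in air libraries 1 and 2 and ethylene library 1. Peaxi162Scf00047 from 222703 to 222710 and Peaxi162Scf00192 from 1101557 to 1101564 were also 8 bp wide, and Peaxi162Scf00150 from 1629161 to 1629169 was 9 bp wide, each in 1 air and 1 ethylene library. Such peaks are shorter than the sequenced reads, so they mark the listed interval and not a whole fragment.

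Many member widths were multiples of 3. Among the 12 most common widths, 105 bp (13 members), 141 bp (10) and 72, 75, 96, 120 and 132 bp (9 each) were multiples of 3, as were 78 and 93 bp (8 each), whereas 76 bp (12 members) and 70 and 98 bp (8 each) were not. Of the 877 widths, 367 (41.8%) left no remainder when divided by 3, 265 (30.2%) left 1 and 245 (27.9%) left 2. Peaks of differing-edge regions gave 35.8, 32.4 and 31.8%, and 36.6% of all m1A peaks were multiples of 3. The share was 42.0% in members of 2 libraries and 41.5% in members of 3. It was 43.7% in the 767 identical-edge regions of 1 treatment and 43.6% in the 181 of 4 or more libraries.

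By library, the multiple-of-3 share of member peaks was 42.8, 42.9 and 34.9% in air libraries 1 to 3 and 43.1, 37.0 and 41.8% in ethylene libraries 1 to 3. The corresponding shares in differing-edge peaks were 36.9, 36.0, 37.5, 36.1, 32.1 and 33.7%. Members were higher in 5 of 6 libraries, and air library 3 went the other way. The remainder was examined after the common widths had been seen, the widths come from the edges that chose the members, and the libraries share regions, so no test is given. In the m6A-titled lists, which the rule did not use, regions of 2 or 3 lists with identical edges between treatments had widths that were multiples of 3 in 46.6% of cases, against 38.3% for peaks of differing-edge regions there. Protein-coding sequence is read in steps of 3 bases, but no gene annotation was used, and the place of the peaks in coding sequence was not tested.

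The rule did not use the m6A-titled lists, but the m1A edges they were compared with are those that chose the members. Few members were covered by an m6A-titled peak: 14 and 17 of 877 in the 2 air lists and 24 and 14 in the 2 ethylene lists, or 31 distinct members (3.53%). Over all m1A regions, 4.21% were covered. Where an m6A-titled peak lay on a member, it almost always had the same start and the same end. Both edges were equal in 14 of 14 and 17 of 17 peaks of the air lists and in 23 of 24 and 14 of 14 peaks of the ethylene lists. By distinct region this was 30 of 31. Over all m6A-titled peaks on any m1A region, both edges were equal to an m1A peak in 22.4%.

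Differing-edge regions had a lower share in every m6A-titled list. There both edges equalled those of an m1A peak of the region in 41 of 148 and 45 of 131 peaks of the air lists and in 46 of 170 and 36 of 129 of the ethylene lists. The means were 99.0 ± 2.08% for members and 29.3 ± 3.42% for differing-edge regions (SD, n = 4 lists). The difference of 69.7 ± 3.15 percentage points (SD, n = 4 lists) had the same sign in 4 of 4 lists. The lists share regions, so they are not fully independent. The m1A edges in this match are those that split members from differing-edge regions, so no test is given. With edges allowed to differ by up to 10 bp, both in the choice of members and in the match to the m6A-titled peak, the difference was 39.5 points. Among merged regions of 100 to 200 bp the shares were 100% (6, 8, 13 and 6 peaks per list, all equal) and 51.4 ± 7.07% (SD, n = 4), a difference of 48.6 points.

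The share of regions covered by an m6A-titled peak was 1.97 ± 0.538% for members and 2.70 ± 0.355% for differing-edge regions (SD, n = 4 lists). This was a difference of -0.732 ± 0.333 points that was negative in 4 of 4 lists (exact sign-flip permutation p = 0.13, the smallest possible; adjusted p = 0.21). Differing-edge regions were wider, and among regions of 100 to 200 bp the difference was -0.206 points with 3 of 4 lists negative. The sign turned to 0.310 points without m1A ethylene library 1. Without each other m1A library the difference in coverage stayed negative, from -1.20 to -0.534 points. With 4 lists the test could not have passed the threshold at any difference, so its p-value decides nothing about coverage.

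The same held edge by edge in regions that shared only 1 edge. Where the m1A libraries shared the start and not the end, m6A-titled peaks had that start in 185 of 186 cases (99.5%), and they had an end equal to that of 1 of the m1A peaks in 94 (50.5%). Where the end was shared and not the start, m6A-titled peaks had that end in 139 of 141 cases (98.6%) and a start of 1 of the m1A peaks in 56 (39.7%). Where neither was shared, 117 of 242 (48.3%) matched a start and 122 (50.4%) an end. In each of the 4 lists the shared edge was matched in 96.6 to 100% of cases and the free edge in 36.4 to 59.5%. A free edge has 2 or 3 values to match and a shared edge has 1. This breakdown was chosen after the data were seen and is a description, since a region can appear in several lists.

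**Figure D4:**
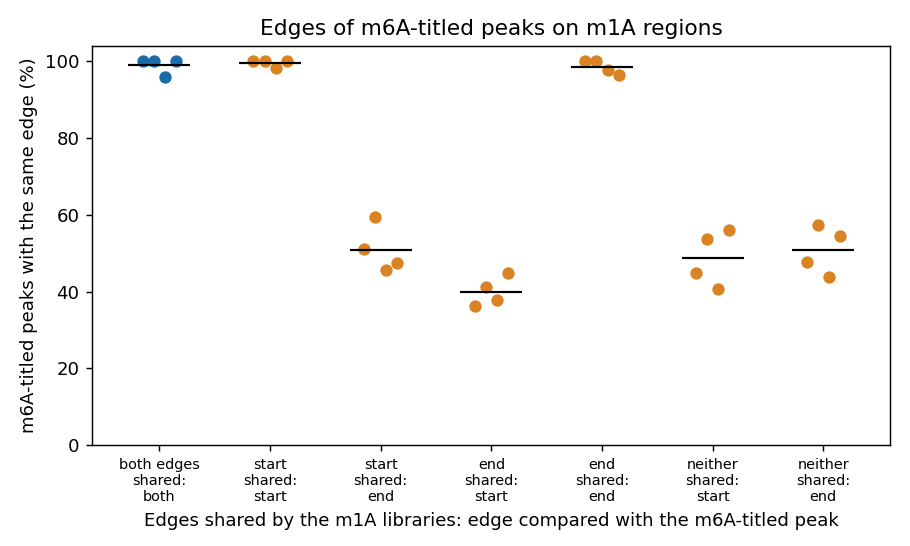
Share (%) of m6A-titled peaks lying on an m1A region whose start or end equalled that of an m1A peak of the region, by which edges the m1A libraries shared; each point is 1 of the 4 m6A-titled lists and lines are their means. Edges shared by the m1A libraries lie at 95.8 to 100%, and edges that differed between them lie at 36.4 to 59.5%.

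Of the 31 members with an m6A-titled peak, 10 had one in all 4 m6A-titled lists, 2 in 3, 4 in 2 and 15 in 1. The strand column of the m6A-titled lists placed 15 of them on the plus and 16 on the minus strand. The 10 members found in all 4 lists had both edges equal in each list, so that the same start and end stood in 6 or 7 separate peak lists. Peaxi162Scf00828 from 132949 to 133631 (683 bp, minus strand) was in 3 m1A lists and 4 m6A-titled lists. Peaxi162Scf00269 from 1465085 to 1465273 (189 bp, plus) had a score of 3100 in air library 1 and ethylene library 3. Peaxi162Scf00001 from 4917631 to 4917823 (193 bp, plus) had 3100 in ethylene library 3 and in air libraries 1 and 2, and Peaxi162Scf01007 from 88475 to 88687 (213 bp, minus) had 3100 in air library 2 and ethylene library 3.

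The other 6 of the 10 had at least 1 score under 3100. Peaxi162Scf00091 from 707964 to 708434 (471 bp, plus) had 3100 in air library 2, 2820 in ethylene library 1 and 1759 in ethylene library 3. Peaxi162Scf00526 from 583794 to 583923 (130 bp, plus) had 3100 in air libraries 1 and 3 and 302 in ethylene library 3. Peaxi162Scf00122 from 612222 to 612450 (229 bp, minus) had 286 in air library 1, 3100 in air library 2 and 217 in ethylene library 3. Peaxi162Scf00439 from 895929 to 896348 (420 bp, minus), Peaxi162Scf00460 from 49473 to 49855 (383 bp, plus) and Peaxi162Scf00018 from 2000416 to 2000559 (144 bp, minus) completed the 10. The single exception among the 31 was Peaxi162Scf00481 from 385385 to 385615 (231 bp, minus), where the peak of ethylene m6A-titled list 1 had the same end and a start 27 bp further in.

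Edges were identical more often in the m6A-titled lists themselves. Of 787 regions present in 2 or 3 of those lists and in both treatments, 515 (65.4%) had identical edges, against 14.1% for m1A. The identical-edge regions were again narrower, with a median of 210 bp against 405.5 bp for merged regions whose edges differed, and 212.5 against 374 bp by peak. The m1A and m6A-titled lists differ in their lowest score (100 and 13.0) and in number of libraries, and the difference in share was not tested.

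Scores of 3100 were counted next in each library. Of member peaks, 36.6, 54.8 and 66.1% had a score of 3100 in air libraries 1 to 3, and 38.9, 74.1 and 51.5% in ethylene libraries 1 to 3. For differing-edge peaks the shares were 33.6, 49.6 and 63.1% in air and 39.6, 69.7 and 54.0% after ethylene, and 50.3% of all m1A peaks had this score. Members were higher in 4 of 6 libraries, by 2.05 ± 3.02 percentage points (SD, n = 6), which did not pass the test (exact two-sided sign-flip permutation p = 0.19, smallest possible 0.0313; adjusted p = 0.23). The members were lower in ethylene libraries 1 and 3. The difference was 0.599 points without air library 2 (exact permutation p = 0.75) and 1.28 points without air library 3 (exact permutation p = 0.31). Among regions of 100 to 200 bp the difference was 5.41 points and positive in 6 of 6 libraries (exact permutation p = 0.0313, unadjusted). That setting was chosen among several alternatives, and it did not make peak widths alike between the classes. With edges allowed to differ by up to 10 bp the difference was -0.362 points. The libraries share regions, so they are not fully independent in any of these tests.

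Scores of a member were also set side by side between the treatments. Of the 605 members of 2 libraries, 143 (23.6%) had 3100 in both, 279 (46.1%) in 1 and 183 (30.2%) in neither. The 279 divided into 144 with 3100 in the air library and 135 with 3100 in the ethylene library. In the 3100 differing-edge regions of 2 libraries with 1 peak in each, the shares were 24.0, 47.8 and 28.1%, close to those of the members, and the difference was not tested. The members with the highest mean score percentile were Peaxi162Scf00543 from 434765 to 435042 (278 bp), Peaxi162Scf00316 from 330203 to 330406 (204 bp) and Peaxi162Scf00801 from 402359 to 402460 (102 bp). They were followed by Peaxi162Scf00207 from 748420 to 748619 (200 bp) and Peaxi162Scf00565 from 129055 to 129067 (13 bp). Each of the 5 lay in air library 1 and in ethylene library 1 or 3, with scores from 3100 to 3224. Peaks tied at 3100 share a mean rank, so their percentile depends on the ties in their list. With 3100 in both lists, the mean percentile was 78.2 for air library 1 with ethylene library 1. It was 71.7 for air library 3 with ethylene library 1. The part of such ties in this ranking was not tested. The ranking also takes scores over 3100 as higher than 3100, the score of 50.3% of all m1A peaks. Since the scale of the score is unstated, that order is an assumption.

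Spacing was measured first within each list, as the distance from a peak to the nearest other peak of the same library. Member peaks had median distances of 1416.5, 1403 and 2199 bp in air libraries 1 to 3 and 2221, 7121 and 2719 bp in ethylene libraries 1 to 3. Differing-edge peaks had median distances of 1689, 1557 and 3088 bp in air and 3497, 63578 and 3142 bp after ethylene. The member median was the smaller in 6 of 6 libraries, at 0.635 to 0.901 of the differing-edge distance in 5 libraries and 0.112 in ethylene library 2. The 75th percentile was also smaller for members in 6 of 6 libraries, at 3868.75 against 5987.5 bp in air library 1. The 25th percentile was larger for members in air libraries 1 (812 against 770 bp) and 2 (790.5 against 728 bp), and smaller in the others. The smallest distance was larger for members in 6 of 6 libraries, but members had fewer peaks from which to draw a minimum. The mean difference in medians was -9912 ± 22806 bp (SD, n = 6). The distance starts at an edge that the rule used, so no test is given. Ethylene library 2, with 27 member peaks, set its size, and without that library it was -602 bp. With peaks at or above a score of 3100 alone it was 12314 bp, with the opposite sign. Among merged regions of 100 to 200 bp the mean difference was 16142 bp, also with the opposite sign. There it was 55, 48 and 600.5 bp in air libraries 1 to 3 and -113, 95423 and 837 bp in ethylene libraries 1 to 3, the 95423 bp resting on 13 member peaks. That band is set by the width of the merged region and does not make peak widths alike: median peak widths in it were 138 to 148 bp for members and 101 to 128 bp for differing-edge regions.

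Spacing was then measured to the nearest m1A region of any library. The median gap was 643 bp for members (308 to 1207 bp, 25th to 75th percentile) and 770 bp for differing-edge regions (373 to 1630.5 bp). The distribution of gaps had a narrow peak. Gaps of 75 to 124 bp were found at 94 members (10.7%), at 311 differing-edge regions (5.81%) and at 6.72% of all m1A regions. Gaps under 75 bp were found at 11 members (1.25%) and 155 differing-edge regions (2.90%). No member peak had a peak of its own list within that distance, since the smallest distance within a list was 141 bp, so the close neighbours lay in other libraries.

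The 75 to 124 bp band was set after the gaps had been seen, and the gap starts at an edge that the rule used, so no test is given. The share in members minus that in differing-edge regions was 4.91 percentage points. It was 2.20 points without air library 1, 1.42 without air library 2 and 3.73 to 4.88 without each other library. With peaks at or above a score of 3100 alone it was 0.651 points. Air libraries 1 and 2 had the longest lists, and the part of list length in this difference was not tested.

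**Figure D5:**
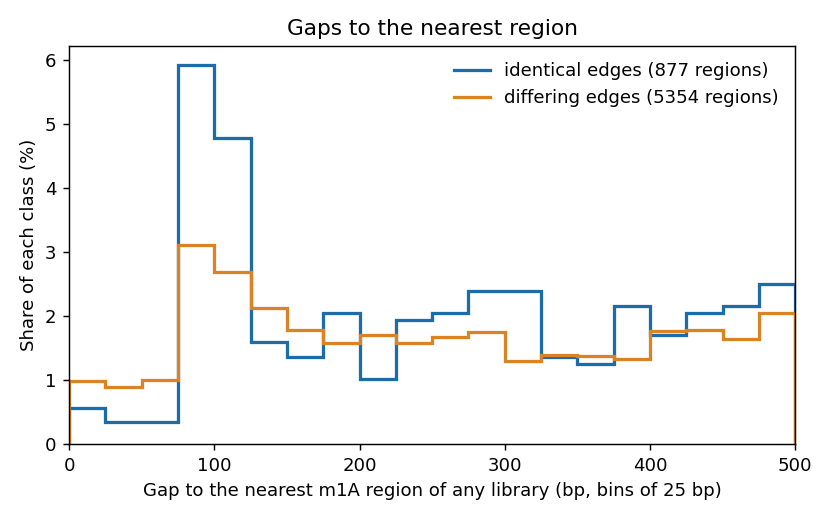
Gap in bp from a region to the nearest m1A region of any library, in bins of 25 bp, as the share (%) of the 877 identical-edge regions and of the 5354 differing-edge regions; gaps of 500 bp or more are not drawn. Both classes rise at 75 bp, members to 5.93% and differing-edge regions to 3.12% in the bin of 75 to 99 bp.

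Members were scattered over the assembly. They lay on 442 of the 1240 scaffolds that held any m1A region, with 1 member on 239 scaffolds and 5 or more on 31. The largest number was 12, on each of Peaxi162Scf00016 and Peaxi162Scf00207. On Peaxi162Scf00016 the first 5 by position were 70, 112, 161, 60 and 162 bp wide, from 154097 to 154166, 272919 to 273030, 279732 to 279892, 281663 to 281722 and 426042 to 426203. On Peaxi162Scf00207 the first 5 were 72, 220, 150, 22 and 200 bp wide, and the first pair, from 145392 to 145463 and from 146567 to 146786, lay 1103 bp apart.

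Neighbouring members were usually far from each other. Of 435 pairs of neighbouring members on a scaffold, 25 lay within 1 kb and 69 within 5 kb, with a median gap of 152188 bp. The closest pair lay on Peaxi162Scf00141, from 171341 to 171410 (70 bp, air library 2 and ethylene library 3) and from 171430 to 171574 (145 bp, air library 1 and ethylene library 1), with 19 bp between them. On Peaxi162Scf01316 members from 102342 to 102434 (93 bp) and from 102542 to 102658 (117 bp) were 107 bp apart. On Peaxi162Scf00073 members from 1111652 to 1112002 (351 bp) and from 1112113 to 1112309 (197 bp) were 110 bp apart. In all 3 of these pairs the neighbours came from different libraries, 1 air and 1 ethylene library each, with no library in common.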

How the data were processed

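Each of the 10 libraries has 1 deposited peak list, in which every peak carries a score of unstated scale. The submitters' processing notes list MACS 1.4.2, STAR 2.5.1b, cutadapt 1.9.3 and CASAVA 1.4 with no role or setting, and name human and mouse builds, whereas the lists use Peaxi162 scaffold names. Columns were read as BED, with the start counted from 0; widths are end minus start, and printed starts are 1-based. Regions were merged and classed in Python 3.11.15 with pandas 2.3.3, and the code was tested on simulated lists. Tests over libraries were exact two-sided permutation or sign-flip tests with a threshold of 0.05, adjusted by the Benjamini-Hochberg method over 5 tests. Some of the 5 rest on edges the rule used and are given without p-values. These are identical edges within against between treatments, distance to the nearest peak and the match of both edges to m6A-titled peaks. Members, lists and tests were chosen with earlier results of these data known. Regions were named by rule: the 5 widest, 5 narrowest and 5 of highest mean score percentile, up to 10 with both edges equal in m6A-titled lists, the first 5 on the 2 scaffolds with most members, the 3 closest pairs and 5 just outside the rule, of which 2 are printed. The exception among the 31 members with an m6A-titled peak was named after its value was seen. No genome was used, so no sequence is printed.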

Additional observations from a re-analysis of the deposited data

How the results depend on the processing

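Of 88 signed differences recomputed under an alternative, 84 kept their sign, and many share libraries or regions. The 88 include differences that rest on edges the rule used, such as region width. They also include the replicate-block value given below, which cannot change. The tally is therefore not a measure of stability. Both comparisons over m6A-titled lists have too few lists to reach the threshold under any alternative, so p-values there say nothing about stability. With edges allowed to differ by 10 bp, 1337 regions were members, the median width difference was -145 bp, the difference in both edges equal to m6A-titled peaks was 39.5 points instead of 69.7, and the difference in share of peaks at 3100 was -0.362 points. With peaks at or above 3100 alone, 408 regions were members, and the difference in distance to the nearest peak of the list was 12314 bp. Among regions of 100 to 200 bp that distance difference was 16142 bp, and the share at 3100 differed by 5.41 points. The size of the 16142 bp was set by 13 member peaks of ethylene library 2. By library the distance difference was -113 bp in ethylene library 1 and 48 to 95423 bp in the others. With regions of 2 or more libraries the median width difference was -131 bp. The cause of these changes was not tested. Leaving out each library gave 570 to 939 members (570 without ethylene library 3), distance differences of -10508 to -602 bp, and coverage differences by m6A-titled peaks of -1.20 to 0.310 points. The replicate block regroups libraries within a replicate number for a p-value only. It leaves the within minus between difference at 2.58 points by construction and says nothing about stability. Deviations of same-numbered air and ethylene libraries had correlations near 0, of -0.0123, 0.0498 and 0.0386. Those of differently numbered libraries ran from -0.100 to 0.0336. The numbers were therefore not taken to pair libraries. Depth is unknown, and shorter lists limit every count.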
